A study of Mus musculus with 2 samples.

Results

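Nkx2-1, Foxa1, Foxa2, Cebpa, Cebpb, Cebpd, Etv5, Gata6, Sox9 and Klf5 are transcription factors of the lung epithelium, chosen here by symbol. Of these 10 factors, 9 were measured among the 27998 genes of the deposited tables, and Cebpd was not analysed here. Lung organoids were grown from AT2 cells, the surfactant-producing progenitors of the alveolus, together with lung stromal cells. The AT2 cells came from Sftpc-CreERT2;R26RTomato mice (strain C57BL/6) given tamoxifen, in which Cre driven by the Sftpc promoter switches on a red reporter. Control organoids received PBS and the others received the inflammatory cytokine IL-1β, and the labels give 2 weeks of culture for both, whereas the study's legend for these cells gives a later day. The stromal cells were in the culture of both conditions. Each condition is represented by 1 library of 3′ droplet scRNA-seq, so no difference below has a replicate, no test was made, and the 95% intervals cover counting error only.

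NKX2-1 specifies the lung epithelium in the embryo and stays on in alveolar cells, where it acts with FOXA1, FOXA2, GATA6 and C/EBP factors on surfactant genes. ETV5 is an ETS factor that is induced by FGF receptor and ERK signaling and maintains AT2 cells. SOX9 marks the distal tips of the embryonic lung, and KLF5 takes part in the choice between AT2 and AT1 fate, AT1 cells being the thin cells through which gas is exchanged.

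The control library held 2101 cell barcodes with a median of 14613 unique molecular identifiers (UMIs, each a counted mRNA molecule), and the IL-1β library held 3066 with a median of 11496.5. The libraries shared 11 barcode sequences. Clusters were named from marker genes that exclude the factors, as AT2-like (941 control and 1921 IL-1β cells), transitional-like (116 and 342) and AT1-like (225 and 274), and 796 and 475 cells were stromal. Clusters named as cycling or primed AT2 cells count as AT2-like, and no cluster took the primed name. The study assigns most epithelial cells of its IL-1β organoids to a primed AT2 state, which it classes by low Etv5, Abca3 and Cebpa among others. By the study's calls, AT2-like ratios of these genes thus set AT2 cells largely against that state. Transitional-like clusters were named from 7 markers, which include Cldn4, Krt8 and Sprr1a of the state that the study calls DATPs. The name does not equate these cells with DATPs. The 10 AT1 markers summed to 22790 UMIs per 1000000 (CPM) in control AT1-like and 1812 CPM in control AT2-like cells, against 15293 and 1135 CPM with IL-1β. The 8 AT2 markers summed to 127884 CPM in control AT2-like cells and 101060 CPM in IL-1β AT2-like cells. The 7 transitional-like markers summed to 429, 1089 and 1185 CPM in control AT2-like, transitional-like and AT1-like cells, and to 876, 3233 and 2707 CPM with IL-1β. In control they were thus not highest in the class named after them. Sftpc was at 90846 CPM in control transitional-like cells, near the 97236 CPM of control AT2-like cells. Nearly every cluster came from 1 library, so the same class name stands for different clusters in the 2 conditions.

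Members lie on chromosomes 2 (Foxa2, 148042877 to 148046969, and Cebpb, 167688915 to 167690418), 7 (Cebpa, 35119293 to 35121928), 11 (Sox9, 112782224 to 112787760), 12 (Nkx2-1, 56531958 to 56536908, and Foxa1, 57540628 to 57546916), 14 (Klf5, 99298691 to 99315036), 16 (Etv5, 22381309 to 22439719) and 18 (Gata6, 11052064 to 11085635) of GRCm38. The sequences just before the start of Etv5 and Cebpa are shown because these genes had the lowest AT1-like to AT2-like ratios of the factors. They come from RefSeq (GRCm38.p6) and stop where the annotated gene begins, Etv5 being read on the minus strand at chr16:22439720-22439820 and Cebpa on the plus strand at chr7:35119043-35119292. Capitals mark a match to a searched motif.
Etv5: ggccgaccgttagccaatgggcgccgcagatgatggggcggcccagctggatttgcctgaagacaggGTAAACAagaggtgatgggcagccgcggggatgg
Cebpa: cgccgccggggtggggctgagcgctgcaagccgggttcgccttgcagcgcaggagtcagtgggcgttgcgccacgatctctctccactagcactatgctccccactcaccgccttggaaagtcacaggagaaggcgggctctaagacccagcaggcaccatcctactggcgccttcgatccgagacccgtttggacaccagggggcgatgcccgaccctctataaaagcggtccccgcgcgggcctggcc
The letters searched on both strands were TTGCNNAA for C/EBP, CCGGAA for ETS, TGTTTNC for forkhead, CAAGTG for NKX2 and GATAAG for GATA factors. Each search covered the 250 bases before a RefSeq start. For Etv5 this window, chr16:22439571-22439820, runs into the annotated gene, and the 101 bases shown are its part outside that gene. It held 1 forkhead match and none of the other letters, a match that 17.8% of 32851 windows of this length hold. A second Etv5 window, chr16:22438369-22438618, held no match. Cebpa held none of the 5 motifs, which says only that these letters are not in this window.

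Among the 8 factors with at least 100 UMIs over both libraries, Etv5 had the ratio farthest from 1 between the conditions in AT2-like cells. In AT2-like cells it was at 288 CPM (95% interval 279 to 297) in the control library and at 88.4 CPM (84.6 to 92.3) with IL-1β. The ratio of 0.307 (0.291 to 0.324) stayed past 1.5-fold in 15 of 15 alternatives, 1 of which gave the same classes as the main setting. The level was low in each IL-1β cluster of this class and not in 1 of them alone. The 4 IL-1β AT2-like clusters had 67.3, 80.7, 89.9 and 107.8 CPM. The main control cluster had 299.9 CPM and the 50 cycling control cells 193.4 CPM. Clusters are parts of 1 library per condition and not replicates, and the share of all genes separated in this way was not computed. Over all epithelial cells of a library, without any class names, Etv5 went from 248 to 78.0 CPM, a ratio of 0.315 (0.2995 to 0.330). There it was the only 1 of 8 factors past 1.5-fold, where 21.2% of 11054 genes passed, 12.6% higher and 8.56% lower. Stromal cells of the culture were also lower in Etv5, at 51.6 CPM in control and 19.2 CPM with IL-1β, a ratio of 0.373 (0.315 to 0.440). In these cells 3 of 7 factors with enough UMIs were lower and 0 higher, where 33.5% of 10059 genes passed, 6.15% higher and 27.3% lower. The others were Cebpa, at 85.5 and 22.7 CPM (0.266, 0.229 to 0.308), and Sox9, at 47.5 and 23.1 CPM. In stromal cells the median log2 ratio was -0.57 over the 7 factors and -0.33 over all genes, so ratios there lie on a scale shifted downward.

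**Figure D1:**
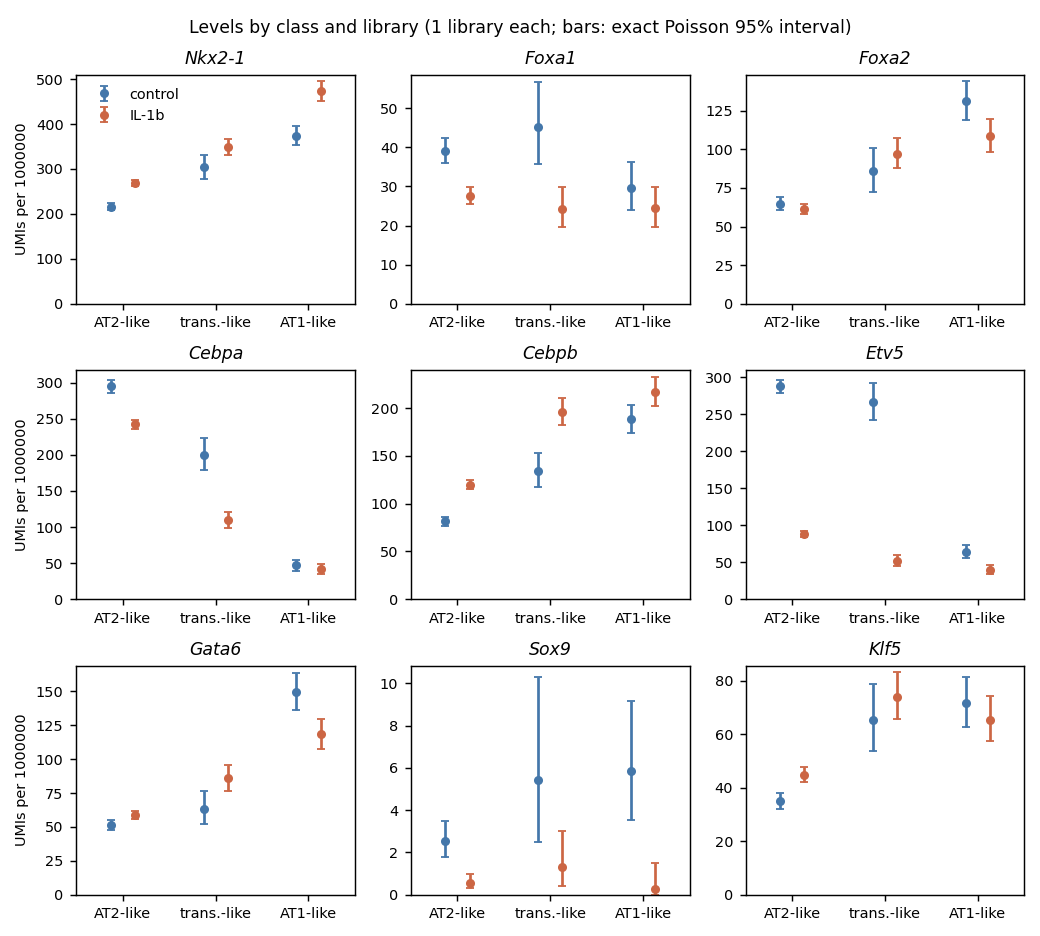
Levels of the 9 measured factors in UMIs per 1000000 (vertical axis, from 0) in AT2-like, transitional-like (trans.-like) and AT1-like cells of the control (blue) and IL-1β (orange) library, each point being 1 library with its exact Poisson 95% interval. Etv5 is at 288 CPM in control and 88.4 CPM in IL-1β AT2-like cells, and Cebpa and Etv5 are lowest in AT1-like cells of both libraries.

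In AT2-like cells, 1 of the 8 factors with at least 100 UMIs over both libraries passed a ratio of 1.5 in either direction, and it was Etv5, on the lower side. Of all 10426 genes with that many UMIs, 23.0% passed in either direction, 15.1% on the higher and 7.86% on the lower side. The median log2 ratio was 0.06 over the 8 factors and 0.10 over all genes. With surfactant, lysozyme, mitochondrial and ribosomal protein genes left out of the total, that median of all genes was -0.005. Nkx2-1 was at 216 CPM in control and 268 CPM with IL-1β, a ratio of 1.24 (1.19 to 1.29, and 1.07 to 1.28 over the alternatives). Its partner Foxa2 was at 64.8 and 61.6 CPM, a ratio of 0.9499 (0.874 to 1.03) that includes 1. Foxa1, a paralog that binds the same DNA sequence, was at 39.1 and 27.6 CPM, a ratio of 0.706 (0.629 to 0.793) that lies just inside the threshold.

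The C/EBP factors stood on opposite sides of 1 in AT2-like cells. Cebpa, which drives AT2 maturation, was at 295 CPM in control and 242 CPM with IL-1β, a ratio of 0.821 (0.788 to 0.854). Cebpb, an inflammation-responsive member of the family, was at 81.6 and 119.8 CPM, a ratio of 1.47 (1.37 to 1.57), just inside the threshold. Klf5 was at 34.9 and 44.7 CPM, a ratio of 1.28 (1.15 to 1.43), and Gata6 was at 51.3 and 58.7 CPM, a ratio of 1.14 (1.04 to 1.25). Over the alternatives the ratios ran from 0.763 to 0.925 for Cebpa, 1.26 to 1.53 for Cebpb, 1.11 to 1.36 for Klf5 and 1.05 to 1.18 for Gata6. Beside Etv5, the intervals of Nkx2-1, Foxa1, Cebpa, Cebpb, Gata6 and Klf5 left out 1, while only Etv5 was beyond 1.5-fold. The share of all genes whose interval left out 1 is not given here, so these intervals are not read as a result about the factors.

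Cebpb counts in epithelial cells stand beside a much higher stromal level, 992 CPM in control and 909 CPM in IL-1β stromal cells. Of the 10 stromal markers, 9 were found in the epithelial classes at 0.546% to 5.36% of their stromal level, and none was at 0. Sparc alone reached 97.4%, in control AT1-like cells. Cebpb was at 8.22%, 13.6% and 19.0% of its stromal level in control AT2-like, transitional-like and AT1-like cells and at 13.2%, 21.5% and 23.8% with IL-1β. These shares are above the range of the 9 markers, but they do not say how much of the epithelial Cebpb count is stromal RNA. That part, and its weight in the Cebpb ratios, was not tested.

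Sox9 was barely counted in epithelial cells. Control AT2-like, transitional-like and AT1-like cells gave 36, 9 and 19 Sox9 UMIs and IL-1β cells gave 13, 5 and 1, so Sox9 stayed under 100 UMIs in each comparison. Stromal cells had 643 control and 218 IL-1β UMIs, at 47.5 and 23.1 CPM. The epithelial levels, 0.268 to 5.86 CPM, were 1.16% to 12.3% of the stromal level. By point value, control transitional-like and AT1-like cells, at 11.4% and 12.3%, lay above the range of the 9 stromal markers. IL-1β transitional-like cells, at 5.61%, lay just above it and the other 3 groups within it. The transitional-like values rest on 9 and 5 UMIs (intervals 2.49 to 10.3 and 0.420 to 3.02 CPM). The 19 UMIs of control AT1-like cells were in 2.22% of those cells, and the main cluster of 221 cells held 11 of them. No group is read as above the range from counts this low. The part of stromal RNA in these counts was not tested.

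**Figure D2:**
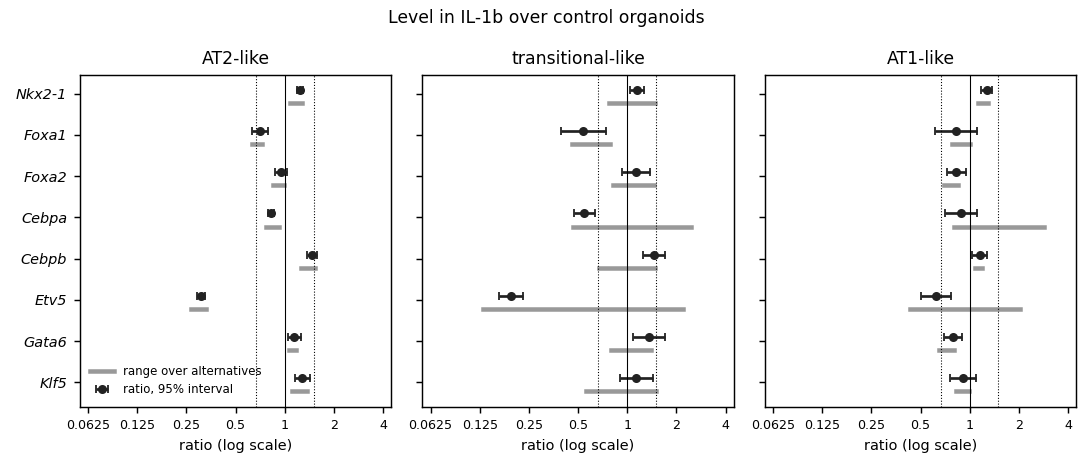
Ratio of the level in IL-1β to that in control organoids (horizontal log axis, 1 at the solid line, 1.5-fold at the dotted lines) for the 8 factors with enough UMIs, in AT2-like, transitional-like and AT1-like cells. Black points with bars are ratios with 95% intervals, and grey bars span the processing alternatives, which for Etv5 run from 0.267 to 0.327 in AT2-like cells and from 0.13 to 2.19 in transitional-like cells.

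In AT1-like cells, 1 of 8 factors passed the threshold, again Etv5 on the lower side, where 17.1% of 7231 genes passed in either direction, 9.32% on the higher and 7.76% on the lower side. Etv5 was at 63.9 CPM in control and 39.7 CPM with IL-1β, a ratio of 0.621 (0.4997 to 0.771). This call rests on how cells were assigned. It held in 9 of 15 alternatives, was lost for example with each cell given the same weight (0.901) and turned with the libraries clustered separately (2.05) and with the highest-scoring 5% of cells removed (1.14). Nkx2-1 was at 373 and 473 CPM, a ratio of 1.27 (1.18 to 1.37), and was above 1 in 15 of 15 alternatives. Gata6 was at 149 and 118 CPM, a ratio of 0.792 (0.694 to 0.903), and was below 1 in 15 of 15 alternatives. Foxa2 was at 131 and 109 CPM, a ratio of 0.828 (0.721 to 0.951). The AT1-like class differed in its markers between the libraries. Its 10 AT1 markers summed to 22790 CPM in control and 15293 CPM with IL-1β, and the 7 transitional-like markers to 1185 and 2707 CPM. The 8 AT2 markers still summed to 31768 and 23287 CPM in this class. The part of this difference in the ratios was not tested.

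In transitional-like cells, 3 of 8 factors passed, all on the lower side, where 22.1% of 6228 genes passed in either direction, 14.4% on the higher and 7.74% on the lower side. Etv5 was at 266 and 52.0 CPM, a ratio of 0.195 (0.164 to 0.231). Cebpa was at 201 and 109 CPM, a ratio of 0.545 (0.471 to 0.632), and Foxa1 at 45.3 and 24.3 CPM, a ratio of 0.537 (0.392 to 0.737). The class held unlike cells in the libraries. Its 7 markers summed to 1089 CPM in control and 3233 CPM in IL-1β cells, and the AT2 markers to 108759 and 53307 CPM. The control class is a single cluster of 116 cells led by Sprr1a and Cldn4, and it shrank to between 14 and 39 cells in 5 of the alternatives and was absent at a resolution of 0.5. In 3 of 14 alternatives the Etv5 ratio was above 1 (up to 2.19) and in 4 of 14 that of Cebpa was (up to 2.45), so neither direction is settled. Foxa1 stayed below 1 in 14 of 14 alternatives, past the threshold in 11.

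Because the classes shifted with the clustering, cells of the 3 classes of each library were also ranked by AT1 minus AT2 marker level. They were split into 6 equal parts, a choice made after the data were seen. Cells of the only cluster named cycling were left out, 50 from control and 1 from IL-1β, so this removal bore almost only on control. No other IL-1β cells were removed as cycling. The removed control cells had less Etv5 (193.4 CPM) than the main control cluster (299.9 CPM). Etv5 was at 287, 288, 301, 317, 255 and 35.5 CPM from the most AT2-like to the most AT1-like part in control. With IL-1β it was at 88.8, 89.998, 91.5, 88.5, 77.6 and 34.3 CPM. The ratio was 0.279 to 0.313 in the first 5 parts and 0.966 (0.751 to 1.25) in the last, so the libraries differed in the first 5 parts. Parts were cut within each library, so parts of the same number are not matched states. The first 4 parts were at least 90.2% AT2-like in control and 92.7% with IL-1β. Part 5 was 46.3% AT2-like, 37.1% transitional-like and 16.6% AT1-like in control, against 58.3%, 40.3% and 1.42% with IL-1β. The last part did not hold the same mixture of cells: 191 of its 205 control cells were AT1-like and 14 transitional-like, against 268 AT1-like, 133 transitional-like and 21 AT2-like of 422 IL-1β cells, so its levels in the 2 libraries are not a comparison of like cells. Cebpa likewise was nearly level over the first 4 parts, at 281 to 321 CPM in control and 233 to 269 CPM with IL-1β, and dropped to 27.7 and 50.5 CPM in the last part. The Cebpa ratio was 0.726 to 0.955 in the first 5 parts and 1.82 (1.41 to 2.39) in the last with its unlike mixtures, where that of the AT1-like class was 0.886 (0.704 to 1.12).

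**Figure D3:**
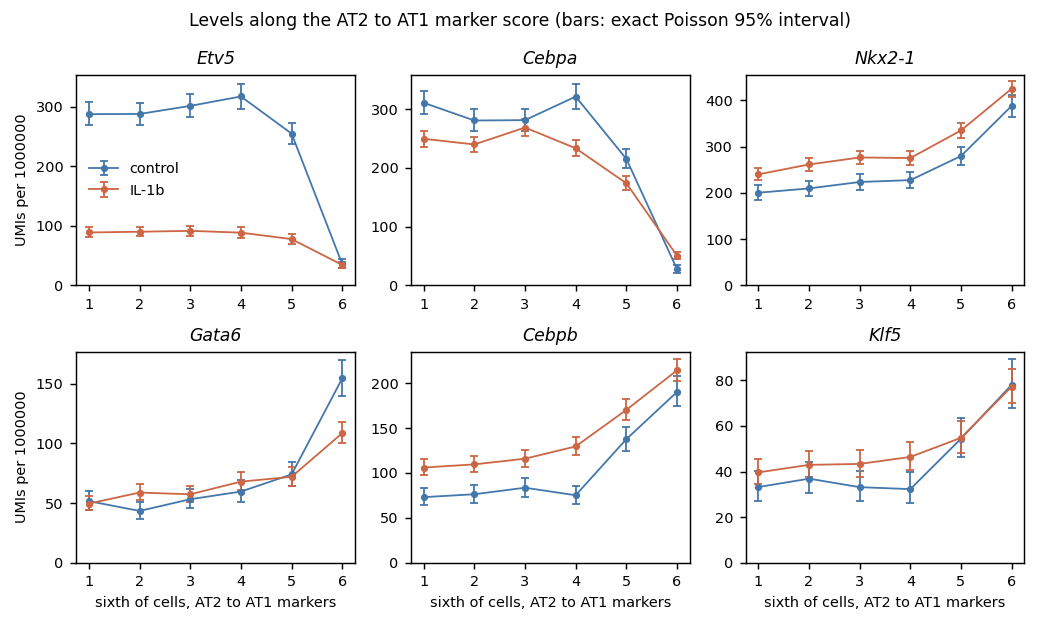
Levels in UMIs per 1000000 (vertical axis, from 0) of 6 factors in equal sixths of the cells of each library, ordered from AT2 to AT1 markers (horizontal axis), with exact Poisson 95% intervals, control in blue and IL-1β in orange. Etv5 lies at 255 to 317 CPM in the first 5 control sixths and 77.6 to 91.5 CPM in those of IL-1β, and at 35.5 and 34.3 CPM in the last, whereas Nkx2-1, Gata6, Cebpb and Klf5 are highest in the last sixth.

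Gata6, Nkx2-1, Cebpb, Foxa2 and Klf5 were higher at the AT1 end of this ranking in both libraries. The share of all genes that rose along it was not computed. Between the AT1-like and AT2-like classes, 36.6% of genes in control and 29.9% with IL-1β were higher by at least 1.5-fold. The rise is therefore not read as particular to these factors. From the first to the last part Foxa2 went from 62.1 to 140.2 CPM in control and from 56.8 to 104.9 CPM with IL-1β. Klf5 went from 33.2 to 78.1 and from 39.6 to 77.3 CPM. Gata6, a factor of early endoderm and of alveolar maturation, was at 51.6 CPM in the first control part and 154.7 CPM in the last, and at 49.5 and 108.7 CPM with IL-1β. Nkx2-1 was at 200.4 and 388 CPM in control and at 240.1 and 425 CPM with IL-1β. The Gata6 ratio of IL-1β to control was 0.960 to 1.36 in the earlier parts. It was 0.703 (0.619 to 0.798) in the last part, with the same unlike mixtures. The Nkx2-1 ratio was 1.10 to 1.25 over the 6 parts. Cebpb was at 72.9 CPM in the first control part and 190 CPM in the last, and at 106 and 214 CPM with IL-1β.

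Between AT1-like and AT2-like cells of the control library, 5 factors were higher and 2 lower of 8 by at least 1.5-fold, where 48.9% of 9018 genes passed, 36.6% higher and 12.3% lower. The median log2 ratio was 0.90 over the factors and 0.37 over all genes. Cebpa had the lowest ratio, from 295 CPM in AT2-like to 46.9 CPM in AT1-like cells, 0.159 (0.134 to 0.187). Etv5 went from 288 to 63.9 CPM, 0.222 (0.192 to 0.255). Gata6 had the highest ratio, from 51.3 to 149 CPM, 2.91 (2.59 to 3.27). Cebpb followed with 2.31 (2.09 to 2.55), Klf5 with 2.05 (1.75 to 2.40), Foxa2 with 2.02 (1.80 to 2.27) and Nkx2-1 with 1.73 (1.61 to 1.85). Foxa1 was at 39.1 and 29.6 CPM, a ratio of 0.758 (0.604 to 0.943), on the other side of 1 from its paralog Foxa2.

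In the IL-1β library 4 factors were higher and 2 lower of 8, where 41.5% of 9971 genes passed, 29.9% higher and 11.6% lower. Cebpa went from 242 CPM in AT2-like to 41.6 CPM in AT1-like cells, 0.172 (0.145 to 0.201), and Etv5 from 88.4 to 39.7 CPM, 0.449 (0.377 to 0.531). Gata6 had a ratio of 2.01 (1.81 to 2.25), Cebpb 1.81 (1.67 to 1.96), Nkx2-1 1.77 (1.67 to 1.86) and Foxa2 1.76 (1.58 to 1.97). Klf5 was at 44.7 and 65.4 CPM, 1.46 (1.27 to 1.68), just inside the threshold, and Foxa1 at 27.6 and 24.4 CPM, 0.884 (0.702 to 1.10). Surfactant mRNA takes a large share of AT2-like counts. Leaving surfactant, lysozyme, mitochondrial and ribosomal protein genes out of the total moved the median of all genes down by 0.34 in control and 0.31 with IL-1β on the log2 scale, and the Nkx2-1 ratio from 1.73 to 1.35 in control and from 1.77 to 1.42 with IL-1β. On that scale 3 factors in place of 6 passed in the IL-1β library, a count given without the share of all genes on that scale.

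**Figure D4:**
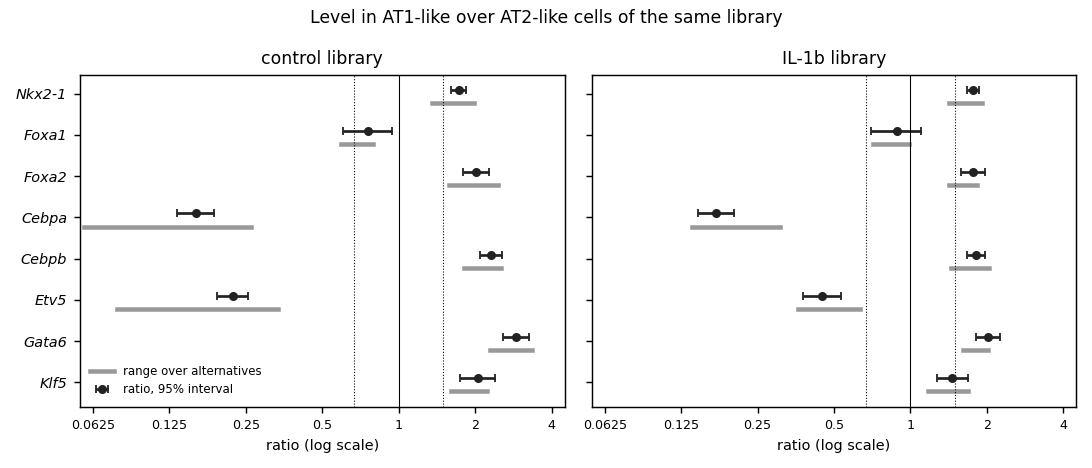
Ratio of the level in AT1-like to that in AT2-like cells (horizontal log axis, 1 at the solid line, 1.5-fold at the dotted lines) for 8 factors in the control and the IL-1β library, with 95% intervals in black and the span of the processing alternatives in grey. Cebpa (0.159 and 0.172) and Etv5 (0.222 and 0.449) lie below 1 and Gata6, Cebpb, Foxa2 and Nkx2-1 above it in both libraries.

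Transitional-like cells of the control library had 2 of 8 factors past 1.5-fold over AT2-like cells, both higher, where 23.3% of 8575 genes passed, 17.6% higher and 5.74% lower. These were Klf5, from 34.9 to 65.2 CPM, 1.87 (1.502 to 2.30), and Cebpb, from 81.6 to 135 CPM, 1.65 (1.42 to 1.91). Both stayed past the threshold in 14 of 14 alternatives, Klf5 at 1.61 to 3.53 and Cebpb at 1.52 to 2.49. The control class held as few as 14 cells in some of these, so the alternatives do not measure the same cells. On the lower side, Cebpa had a ratio of 0.6796 (0.606 to 0.760), just inside the threshold, and was past it in 10 of 14 alternatives (down to 0.219), and Etv5 had 0.925 (0.837 to 1.02) and was past it in 6 of 14 (down to 0.107). In the IL-1β library 3 were higher and 2 lower, where 22.6% of 9925 genes passed, 15.9% higher and 6.67% lower. Klf5 had a ratio of 1.65 (1.45 to 1.89), Cebpb 1.63 (1.51 to 1.77) and Foxa2 1.58 (1.41 to 1.77), while Cebpa had 0.452 (0.408 to 0.499) and Etv5 0.588 (0.506 to 0.680). Klf5 was past 1.5-fold in 11 of 14 alternatives, Foxa2 in 7, Cebpb in 6, Cebpa in 13 and Etv5 in 7.

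From transitional-like to AT1-like cells of the control library 2 of 8 factors were higher and 3 lower, where 28.0% of 5921 genes passed, 21.4% higher and 6.60% lower. Gata6 had a ratio of 2.36 (1.90 to 2.94) and Foxa2 1.53 (1.26 to 1.86), and Cebpa had 0.234 (0.192 to 0.284), Etv5 0.2398 (0.202 to 0.284) and Foxa1 0.654 (0.478 to 0.897). With IL-1β 0 were higher and 1 lower, where 16.2% of 7388 genes passed, 11.2% higher and 4.99% lower. It was Cebpa, from 109 to 41.6 CPM, 0.380 (0.314 to 0.458).

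Read by level over the 6 class and library groups, Nkx2-1 ran from 473 CPM in IL-1β AT1-like down to 216 CPM in control AT2-like cells. Only control AT1-like (373 CPM) and IL-1β transitional-like cells (349 CPM) were neighbors in its order whose ratio interval held 1. Cebpa ran from 295 CPM in control AT2-like to 41.6 CPM in IL-1β AT1-like cells, and its 2 AT1-like groups, 46.9 and 41.6 CPM, were not separated by counting error. Etv5 had its 2 highest groups, control AT2-like and transitional-like cells (288 and 266 CPM), not separated. For Foxa1, the lowest 4 groups from 29.6 to 24.3 CPM were not separated from their neighbors. Klf5 had its highest 4 groups, 73.9 to 65.2 CPM, in the same position.

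Shares of cells with a UMI were compared after each cell was thinned to 4600 UMIs, which left out no cell. Etv5 was found in 71.0% of control and 32.3% of IL-1β AT2-like cells (unthinned 93.4% and 58.6%, median depths 14460 and 11428 UMIs), against 23.0% and 8.21% of stromal cells. In AT1-like cells the thinned share was 12.9% in control and 14.2% with IL-1β, the reverse order of the Etv5 CPM there, and no order is read from it. Nkx2-1 was found in 61.4% to 83.2% of cells over the 6 epithelial groups, against 4.27% and 8% of stromal cells, whose median depths before thinning were 15723.5 and 14849 UMIs. Sox9 was found in 0.208% to 3.45% of the epithelial groups and in 16.1% and 9.47% of stromal cells, so each epithelial share lay below the stromal ones and no order is read among them. Cebpa in control AT1-like cells, 10.2%, was likewise below the 28.6% of control stromal cells. With IL-1β the order was the reverse, at 15.7% of AT1-like (11.6% to 20.6%) and 9.89% of stromal cells (7.36% to 12.9%).

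Genes that are read beside the factors came from 4 lists. Of 8 genes listed for FGF and ERK feedback, 0 were higher and 3 lower in IL-1β AT2-like cells, beside 15.1% higher and 7.86% lower of all genes. The list includes Fgfr2, which encodes an FGF receptor and is not itself a feedback gene. The 3 were Spry2, a feedback inhibitor, at 159 and 80.1 CPM (ratio 0.504, interval 0.473 to 0.536), Spry1 at 65.4 and 41.3 CPM (0.631, 0.576 to 0.692) and Dusp6, a phosphatase for ERK, at 29.5 and 18.8 CPM (0.639, 0.558 to 0.733). Spred1 lay above 1, at 82.3 and 96.5 CPM (1.17, 1.09 to 1.26), and so did Spry4, at 2.45 and 3.34 CPM (1.36, 0.901 to 2.09), with an interval that held 1. The median log2 ratio of the 8, Fgfr2 included, was -0.44. Etv4, the closest relative of Etv5 in the list, was at 10.1 and 8.11 CPM, a ratio of 0.803 (0.643 to 1.01).

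Of 6 acute-phase genes with known C/EBP sites, 5 were higher and 0 lower in AT2-like cells, beside 15.1% and 7.86% of all genes, with a median log2 ratio of 2.44. Orm1 was at 4.42 and 70.4 CPM (ratio 15.9, interval 12.4 to 20.8) and Saa3 at 553 and 3212 CPM (5.81, 5.67 to 5.94). Stromal cells held 10064 and 60438 CPM of Saa3, and AT2-like cells were at 5.50% and 5.32% of that, near the upper end of the stromal marker range, while stromal Orm1 was at 0.738 and 4.02 CPM. Lrg1 moved least, at 1397 and 1766 CPM (1.26, 1.24 to 1.29). The list was chosen with earlier results of these data known, and the study reports Orm1 and Lrg1 as raised in IL-1β organoids by qPCR. The count of 5 of 6 is therefore not independent evidence. A link of these genes to Cebpb, and the part of stromal RNA in the Saa3 counts, was not tested.

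Of 7 surfactant and secretory genes, 6 had enough UMIs in AT2-like cells, with 2 higher and 2 lower, beside the same shares of all genes. Sftpd was at 2483 and 4563 CPM (ratio 1.84, interval 1.82 to 1.86) and Sftpa1 at 8495 and 12837 CPM (1.51, 1.501 to 1.52), whereas Abca3, the lipid transporter of lamellar bodies, was at 522 and 267 CPM (0.512, 0.495 to 0.530). Scgb1a1, the secretory protein of club cells, was at 244 and 15.4 CPM (0.0628, 0.0562 to 0.0701). Sftpb was the least moved, at 11849 and 8596 CPM (0.725, 0.721 to 0.730).

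**Figure D5:**
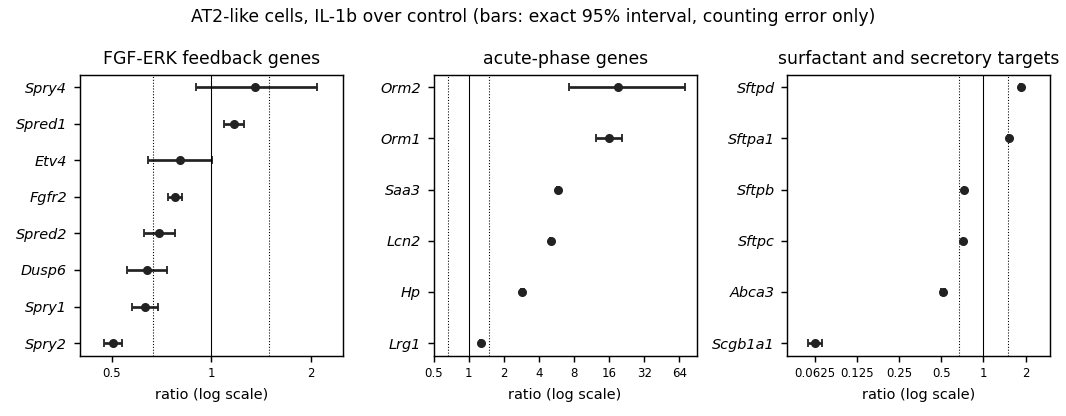
Ratio of IL-1β to control in AT2-like cells (horizontal log axes, which differ between panels, 1 at the solid and 1.5-fold at the dotted lines) for FGF and ERK feedback, acute-phase, and surfactant and secretory genes with at least 100 UMIs, with 95% intervals for counting error only. Spry2 (0.504) is the lowest feedback gene, and 5 of the 6 acute-phase genes lie above 1.5.

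Among 43 paralogs and other epithelial regulators, 35 had enough UMIs in AT2-like cells, with 7 higher and 5 lower, beside 15.1% and 7.86% of all genes, and a median log2 ratio of 0.09, beside 0.10. Klf2, a Kruppel-like relative of Klf5, was at 10.9 and 56.3 CPM (ratio 5.18, interval 4.39 to 6.16) and Klf10 at 11.2 and 29.9 CPM (2.68, 2.26 to 3.21). Id2, an inhibitor of helix-loop-helix factors, was at 455 and 256 CPM (0.562, 0.543 to 0.583), and Srebf1, a regulator of lipid synthesis, at 117 and 75.5 CPM (0.645, 0.603 to 0.690). Foxp4 moved least, at 52.4 and 52.7 CPM (1.01, 0.918 to 1.10). Etv4 is counted in this list and in that of feedback genes. Between AT1-like and AT2-like cells of the control, 13 of 35 were higher and 9 lower, beside 36.6% and 12.3% of all genes, led by Hopx, an AT1 marker used in part to name the class, at 6.80 and 429 CPM (63.0, 51.3 to 78.2).

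Likeness of pattern was measured as Pearson's r of log2(CPM + 10) over 13 groups of at least 30 cells (11 epithelial clusters and the stromal cells of each library) and 8871 genes. The groups share 2 libraries and the contrast of epithelial with stromal cells weighs in most of these values. Most like Etv5 were Mfsd2a (r = 0.93), Acly (0.92) and Sowahc (0.92), and most like Cebpa were Wnk4 (0.96), Akap7 (0.96) and Rerg (0.93). For Nkx2-1 these were Jup, Renbp and Adgrg1 (0.99 each), for Gata6 Smpdl3a (0.99), Il17re (0.98) and Pof1b (0.97), and for Klf5 Foxa2 (0.98), Tmbim6 (0.98) and Sh2d4a (0.98). For Foxa2 they were Tmbim6 (0.99), Fam134b (0.99) and Sh2d4a (0.98), and for Foxa1 Ppp1r9a, Pip5k1b and Acsl5 (0.98 each). Cebpb was most like Asap1 (0.98), Ikbip (0.97) and Fam114a1 (0.97), and Sox9 most like Cemip, Cd248 and Chodl (0.99 each).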

How the data were processed

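The authors aligned reads to GRCm38 with Cell Ranger and deposited raw UMI counts for each barcode. The members and lists were chosen with earlier results of these data known. Barcodes with 500 to 7000 genes and over 2000 UMIs were kept (2083 control, 3059 IL-1β). Doublet removal with scrublet marked 3 cells, so doublets remain. Members and lists were left out of clustering (scanpy 1.11.5, leidenalg 0.10.2, 50 components, 15 neighbors, resolution 1.0, 1340 genes). Clusters were named after the marker list that was highest, by mean log2 fold against the remaining epithelial cells of the same library. The scaling used in clustering and the conditions for names were settled after several clusterings had been compared by class sizes, marker scores and leading genes. Earlier forms are among the alternatives. An AT2-like cluster of 462 cells, nearly all from the IL-1β library, scored higher as cycling than as AT2 (mean log2 fold 0.11 against 0.0036) with no cycling marker among its leading genes. UMIs were summed per class and library and divided by the class total (CPM), with exact Poisson intervals and exact conditional intervals for ratios. A ratio of at least 1.5 either way, at 100 UMIs or more over both groups, counts as passing. All 10 listed genes are named; the lists are given by counts and by the genes that moved most and least. On Poisson counts simulated from whole libraries, 100% of 200 genes with planted changes past 1.5-fold were recovered and 95.2% of intervals held the true ratio. The changes were planted in well-counted genes, without variation between cells or libraries and without class-sized totals. The simulation therefore checks the calculation and not the class ratios. Positions are from GENCODE M21.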

Additional observations from a re-analysis of the deposited data

Results flagged for a closer look

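The ratio of IL-1β to control for Gata6 lay on opposite sides of 1 in different classes, with intervals that left out 1: 1.14 in AT2-like and 1.35 in transitional-like cells against 0.792 in AT1-like cells. The AT2-like ratio stayed above 1 and the AT1-like ratio below 1 in 15 of 15 alternatives each. The transitional-like ratio stayed above 1 in 10 of 14 and fell to 0.797. In the ranking by AT1 minus AT2 markers, the Gata6 ratio was 0.960 (0.785 to 1.18) in the most AT2-like part. The next part had 1.36 (1.11 to 1.67). The others before the last had 1.08, 1.14 and 0.973, with intervals that held 1. The last, with unlike mixtures, had 0.703 (0.619 to 0.798). In AT2-like cells the log2 ratio was 0.19 for Gata6, beside a median of 0.10 over all genes. The AT2-like rise was thus small and not seen in each part. The transitional-like and AT1-like classes also differed in their markers between the libraries, as given above. With 1 library per condition the difference in the Gata6 ratio between classes was not tested.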

How the results depend on the processing

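Of 17 alternatives, 14 were planned and 3 were chosen after seeing the data (scaled clustering genes, names without a leading marker, and classes by each cell's marker score). The fold and UMI thresholds leave ratios as they are, so 15 at most are counted for a ratio. Among these, names without a leading marker gave the same classes as the main setting and so repeat each main ratio. Leaving out cycling cells did not change the ratios of IL-1β to control in transitional-like and AT1-like cells. Counts of alternatives that keep a call or direction include these repeats as agreement. Member ratios stayed within their interval in 700 cases, moved beyond it in 216 and, for ratios past 1.5-fold, crossed 1 in 10. These cases outnumber the 816 pairs of a ratio and an alternative counted for it, repeats included, so the 700 give no share of stable ratios. Counting also those within 1.5-fold, 16 of 56 ratios crossed 1 under some alternative, 7 of them among the 8 of IL-1β over control in transitional-like cells (Foxa1 did not). In AT1-like cells 3 of 8 did, with Cebpa below 1 in 7 of 15 and reaching 2.84. None did between conditions in AT2-like cells or between AT1-like and AT2-like cells. No paired analysis was possible because each condition has 1 library. With a resolution of 0.5 no transitional-like control cells were named, so those comparisons have no value. Sox9 is not among these ratios, since it was under 100 UMIs. Where values differ below, the cause was not tested.

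The ratio of IL-1β to control in transitional-like cells turned for Cebpa to 1.82 and for Etv5 to 1.01 at a resolution of 2.0, to 2.45 and 2.14 with all highly variable genes, and to 2.44 and 2.19 without the highest-scoring 5% of cells, and for Cebpa to 1.90 with genes centered. For Etv5 it turned in AT1-like cells to 2.05 with separate clustering and 1.14 without those 5%, and the transitional-like to AT2-like ratio with IL-1β to 1.01 with Louvain clustering.

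The counts below come without the share of all genes past the fold under the same alternative. They are not read as results about the factors. The control transitional-like class held 17 cells at a resolution of 2.0 and 14 with all highly variable genes. Of 8 factors, the number past 1.5-fold between conditions in AT2-like cells was 1, and 2 under seed 1, all highly variable genes, removal of the 5%, scaled genes, no cycling cells or the reduced total. In transitional-like cells it was 3, and 1 with separate or Louvain clustering, scaled genes, marker scores or a fold of 2. In AT1-like cells it was 1, 3 with separate clustering, and 0 under seed 1, no cutoffs, equal cell weights or a fold of 2. Between AT1-like and AT2-like cells it was 7 in control and did not move beyond 1.5 times, and with IL-1β it was 6, and 3 with the reduced total or a fold of 2. Between transitional-like and AT2-like control cells it was 2, against 5 at a resolution of 2.0 or with separate clustering, 6 with all highly variable genes or without the 5%, 4 with centered or scaled genes or marker scores, and 0 at a fold of 2. With IL-1β it was 5, against 2 with separate clustering or the reduced total, 1 with Louvain clustering, centered genes or a fold of 2, and 3 under seed 1, without the 5%, without cutoffs or with scaled genes.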
